A study of Homo sapiens with 12 samples.

Results

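Cultures that received no doxycycline were compared between day 16 and day 4, on 4 of the 12 arrays of a series on LHX2 in H9, a human embryonic stem cell line. The arrays were chosen by their labels alone: 2 are labelled day 16 and 2 day 4, all of cells with an LHX2 construct kept without the drug (dox-minus). Both days share that construct, so neither group is plain H9, and the labels name no line, clone or passage. The other groups were the same kind of cells given doxycycline for 3 days (dox-plus) and collected at day 16 or day 4, which is 13 days or 1 day after that treatment, and, at 12 days of neural induction, cells carrying a hairpin to LHX2 (shLHX2) or to luciferase (shLuc). Each group held 2 arrays, described in the series as biological duplicates. A GFP control is mentioned for the dox arm, but no label of the 12 arrays names it. The labels do not give the medium in which the dox-arm cells differentiated, and no undifferentiated cells were analysed here, so day 4 is the earliest point.

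Embryonic stem cells are held in the pluripotent state by a circuit of transcription factors that includes POU5F1, NANOG and SOX2. When that circuit is released, cells shielded from BMP and Nodal signals become neural ectoderm, which turns on PAX6 and, at its anterior end, the eye field factors LHX2, RAX and SIX3. Cells that receive BMP, WNT or Nodal signals take epidermal, mesodermal or endodermal paths, and HOX genes mark progressively posterior positions of the body axis. Total RNA of a mixed culture averages over all of these fates, and more cells of a type cannot be told apart from more RNA per cell.

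The arrays detected between 19050 and 20489 of 47227 probes. Levels are normalized log2 signals, differences are log2 changes (day 16 minus day 4), and a gene was detected on an array when its detection p was under 0.01. A gene dim on both arrays of a day has only a bound there, given as "at least" a fold over the lowest signal among detected probes (5.55 to 5.67 on these 4 arrays). Each value is that of a gene's brightest probe, and other probes can change by less, such as 2.61 for HOPX, 2.05 for CRHBP, 1.15 for HEY1 and 0.95 for TFAP2A. The 2 day 16 arrays correlated at 0.976 across genes, the lowest of the 6 groups, and the 2 day 4 arrays at 0.990. Between the day 16 arrays 782 genes differed by more than 1 on the log2 scale (5.0% of genes), 634 of them higher on replicate 2, against 88 genes between the day 4 arrays. The widest gaps belonged to ribosomal protein genes and pseudogenes and to a small nucleolar RNA: RPS13P8 had 7.96 and 10.06, RPL34 10.16 and 12.16, and SNORA12 7.53 and 9.53 on day 16 replicates 1 and 2. The same gap, replicate 2 minus replicate 1, correlated across genes at 0.643 with that of the dox-plus day 4 arrays and at 0.180 with that of the dox-minus day 4 arrays, which is a description of arrays normalized together.

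Some genes were near background or bright in a way that crossed the labels, and their levels bear on every comparison with dox-minus day 4. TRIM4, a RING-finger protein, had 4.57 and 4.63 on the dox-minus day 16 arrays and 4.52 and 4.60 at dox-plus day 4, undetected on all 4, against 7.44 and 7.02 at dox-minus day 4, 8.33 and 8.09 at dox-plus day 16 and 6.41 to 6.66 in the knockdown arm. A second TRIM4 probe changed by 0.08 and was not called. ZNF558, a zinc finger protein, and H19, the imprinted non-coding RNA next to IGF2, were likewise undetected on the dox-minus day 16 and dox-plus day 4 arrays and detected on the other 8. For IAH1, an esterase, the levels were 5.69 and 5.87 at dox-minus day 16 and 5.70 and 6.14 at dox-plus day 4, against 8.75 and 9.26 at dox-minus day 4 and 9.18 and 9.31 at dox-plus day 16. NNAT, the imprinted neuronatin gene, ran the other way, with 12.46 and 12.19 at dox-minus day 16 and 11.88 and 11.07 at dox-plus day 4, against 7.39 and 7.13 at dox-minus day 4. NNAT crossed the labels only in part. It rose by 5.07 in dox-minus cells, and this change minus that in dox-plus cells was 5.94. Its fall in dox-plus cells was thus far smaller, and among the dox groups dox-minus day 4 alone was low. What sets these levels was not tested, nor whether the dox-minus and dox-plus labels were exchanged at one of the days, which would change what each comparison of days holds. Also, the labels do not say whether the dox-minus cultures of both days came from the same cells. The counts of changed genes, over all genes and by list, were therefore also taken for dox-minus day 16 against dox-plus day 4, the day 4 group with the same pattern. A list's count is given for it where it moved by over 1.5 times and by at least 2 genes. It is a comparison chosen after seeing the data that also contains the drug.

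**Figure D1:**
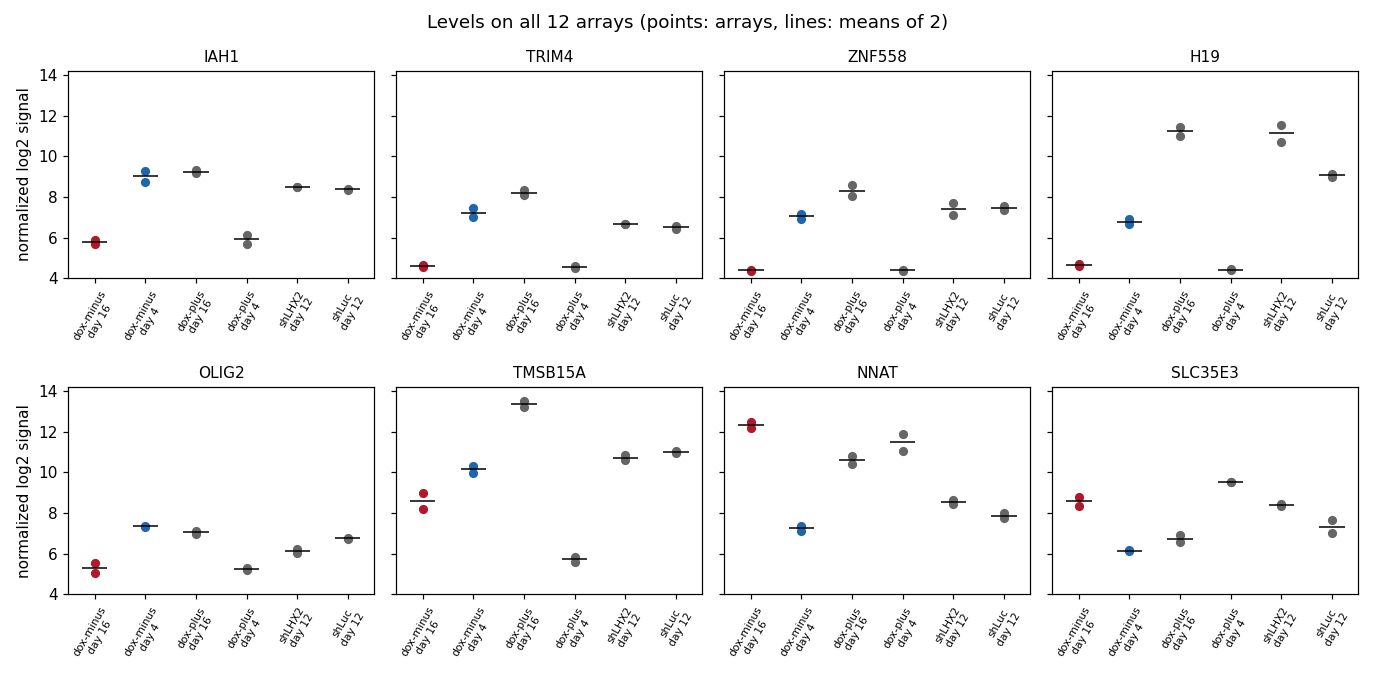
Normalized log2 signal of 8 genes on all 12 arrays, 2 points per group with a line at their mean. IAH1, TRIM4, ZNF558, H19, OLIG2 and TMSB15A were lower at dox-minus day 16 than at dox-minus day 4, and NNAT and SLC35E3 higher, while in dox-plus cells each of these 8 genes differed between the days in the opposite direction.

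Of 15649 genes tested, 2823 (18.0%) changed from day 4 to day 16 at an adjusted p under 0.05 in one limma fit over the 12 arrays. At day 16, 1517 genes (9.69% of those tested) were higher and 1306 (8.35%) lower, and the median change over all genes was -0.04. Without normalization between arrays, in the deposited value table, the split was 1497 higher and 631 lower. Against dox-plus day 4 it was 1715 and 1897 (23.1% of genes called). The rises were larger than the falls: 117 genes rose by more than 3 and 7 fell by more than 3 on the log2 scale. By detection alone, without a model, 585 genes were present on both day 16 arrays and neither day 4 array, and 254 the reverse.

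**Figure D2:**
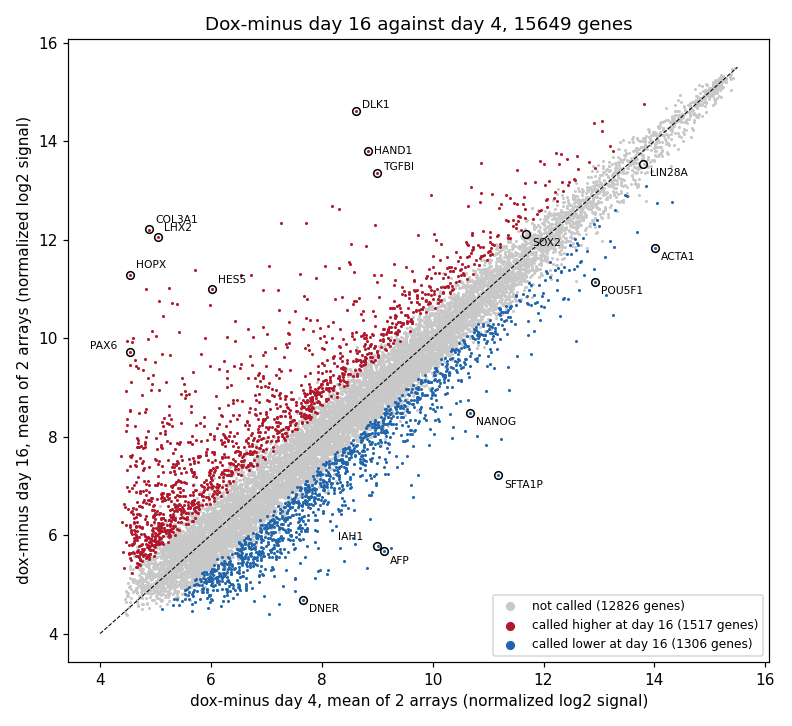
Mean normalized log2 signal at dox-minus day 16 (vertical axis) against dox-minus day 4 (horizontal axis), 1 point per gene, with the dashed line at equality. The 1517 genes called higher include a column of genes at background at day 4, such as COL3A1, LHX2 and HOPX, and the 1306 called lower lie closer to the line.

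Most pluripotency genes fell. Of 30 tested members of the list, 20 fell and 0 rose, with a median change of -1.17 (-1.09 with undetected genes at their bound), beside -0.04 (-0.02) over all genes. NANOG, a homeodomain factor of the pluripotency circuit, had 8.78 and 8.17 at day 16, against 10.63 and 10.71 at day 4, a change of -2.19 ± 0.24 (SE, adjusted p = 5.97e-05). The second NANOG probe changed by -1.85. POU5F1, the POU-domain factor at the centre of the circuit, had 11.09 and 11.19 at day 16, against 12.70 and 13.14 at day 4 (-1.79 ± 0.22, adjusted p = 0.000148). It was still detected on both day 16 arrays, as were the other 6 tested pluripotency markers NANOG, SOX2, LIN28A, DNMT3B, DPPA4 and L1TD1. UTF1, a chromatin-associated factor of stem cells, fell by 2.03, VSNL1, a calcium sensor, by 1.90, and POLR3G, a subunit of RNA polymerase III, by 1.77, with a gap of 1.06 between its day 16 arrays. NR5A2, an orphan nuclear receptor, fell below detection, by at least 2.12-fold.

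Other genes of the circuit were not called. SOX2, which neural progenitors also use, had 12.11 and 12.12 at day 16, against 11.94 and 11.45 at day 4, a difference of 0.43 that was not called (adjusted p = 0.276). LIN28A, an RNA-binding protein that blocks let-7 processing, differed by -0.27 and was not called either (adjusted p = 0.335). The de novo DNA methyltransferase DNMT3B fell by 1.5, its relative DNMT3A by 1.33 and the chromatin remodeller HELLS by 1.24. Of 26 genes of DNA methylation and chromatin, 5 fell and 2 rose (26.9% called, beside 18.0% of all genes). Their median of -0.07 was close to the -0.04 over all genes. There were 3 falls without day 4 replicate 1 and 4 rises against dox-plus day 4.

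The upstream sequence of NANOG is shown because it holds the paired element through which the circuit is known to act on its own gene. The 250 bases before its start (RefSeq, GRCh38.p14, plus strand, chr12:7789152-7789401) contain TTTGCAT, which is part of the octamer, and a SOX core ACAATG, in capitals, which do not overlap.
NANOG: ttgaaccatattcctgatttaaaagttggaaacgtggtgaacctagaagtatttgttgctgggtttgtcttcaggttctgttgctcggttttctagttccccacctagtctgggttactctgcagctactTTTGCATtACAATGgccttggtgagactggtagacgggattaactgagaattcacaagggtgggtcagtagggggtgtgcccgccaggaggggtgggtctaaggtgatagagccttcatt
Searched on both strands, TTTGCAT is present in 3.94% and the SOX core in 9.29% of 35116 such promoters. A match is a stretch of letters and not a measured binding site.

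Anterior neural genes rose, many of them from below detection. LHX2, a LIM-homeodomain factor of the eye field and forebrain, had 12.19 and 11.92 at day 16, against 5.23 and 4.87 at day 4, where it was undetected, and rose by at least 83.5-fold (adjusted p = 1.68e-08). By their labels, these cells were not given the drug. PAX6, the paired-box factor of neural ectoderm and eye, had 9.88 and 9.55 at day 16, against 4.58 and 4.50 at day 4, and rose by at least 16.4-fold (adjusted p = 2.39e-08). Its second probe changed by 3.55. RAX, the retina and anterior neural fold homeobox factor, rose by at least 33.6-fold and SIX6, another eye field factor, by at least 9.03-fold. SIX3, which keeps WNT signalling out of the anterior neural plate, was already detected at day 4 and had 9.56 and 9.09 at day 16, against 6.09 and 6.5 at day 4, a rise of 3.03 ± 0.36. Of 23 tested forebrain and eye field genes, 15 rose and 1 fell, with a median of 1.68 (1.36 at the bounds).

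Some forebrain genes were not called. DMRT3, a cortical factor, was undetected at both days. HESX1, an anterior repressor, had 8.19 and 10.01 on the day 16 arrays, against 7.80 and 8.02 at day 4, so that 1 day 16 array lay near the day 4 level, and it was not called (adjusted p = 0.11). OTX2, the head homeobox factor, rose on its brightest probe, by 0.87 ± 0.20, while another of its probes changed by 3.60.

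Progenitor genes and their Notch readouts rose with the eye field factors. HES5, a repressor switched on by Notch in neural progenitors, had 11.12 and 10.87 at day 16, against 5.93 and 6.09 at day 4, a rise of 4.98 ± 0.22 (adjusted p = 3.56e-08). The Notch ligand DLL1 rose by 2.73, the Notch target HEY1 by 3.46, HES4 by 1.29 and the glycosyltransferase MFNG by 1.25, whereas the receptor NOTCH1 differed by 0.34 and the ligand JAG1 by 0.36, neither called. FABP7, the fatty acid carrier of radial glia, had 7.54 and 9.45 at day 16 and was undetected at day 4, a rise of at least 7.06-fold over arrays that stand apart from each other. MEIS2, NR2F2 and NR2F1, transcription factors of the developing brain and of other tissues, rose by at least 10.8-fold, 9.69-fold and 7.25-fold, while a second probe differed by 0.93 for MEIS2 and by 0.09 for NR2F2. Of 27 neural progenitor genes, 15 rose and 1 fell (median 1.12), and of 18 Notch pathway genes 6 rose and 0 fell (median 0.25).

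The HES5 promoter is shown for its RBPJ sites, since RBPJ is the DNA-binding partner of activated Notch. The 250 bases before its start (GRCh38.p14, minus strand, chr1:2530264-2530513) hold the core TGGGAA or its reverse complement at 2 places, in capitals.
HES5: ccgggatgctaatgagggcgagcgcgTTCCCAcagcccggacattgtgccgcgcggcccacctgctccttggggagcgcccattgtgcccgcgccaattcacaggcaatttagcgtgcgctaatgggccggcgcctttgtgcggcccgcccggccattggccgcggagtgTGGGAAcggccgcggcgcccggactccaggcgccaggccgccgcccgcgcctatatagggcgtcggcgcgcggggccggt
The core is common, being found on either strand in 20.8% of the 35116 promoters.

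Neuronal genes moved both ways. Of 35 tested, 9 rose and 12 fell, with a median of -0.12. NEUROG2, a proneural factor, had 8.08 and 8.02 at day 16, against 5.85 and 6.09 at day 4 (2.08 ± 0.25), and RELN, the secreted guidance protein of early cortical neurons, rose by at least 3.79-fold. RTN1 and STMN4, both neuronal proteins, rose by at least 2.57-fold and 1.89-fold, though another RTN1 probe differed by -0.12. Among the 5 neuron markers, MAP2, a dendritic microtubule protein, rose by 0.87, with another probe at -0.23 and not called. STMN2, a growth cone protein, fell by 0.71 with an adjusted p of 0.0485, and that call was lost under 15 of 21 alternatives, which include leaving out each dox-plus array. Another STMN2 probe changed by -0.75. TUBB3, neuronal tubulin, had 11.84 and 11.18 at day 16, against 12.42 and 12.20 at day 4, and was not called (adjusted p = 0.0919). SCG2 and CHGA, granins of secretory granules, fell by 1.78 and 1.67, and the neuropeptide genes GAL and CALCA fell by 1.36 and 1.66, CALCA on 1 of its 2 probes. CRHBP, the binding protein of corticotropin-releasing hormone, had 10.67 and 10.77 at day 16, against 5.20 and 5.38 at day 4, and rose by at least 33.1-fold. Of 15 neuropeptide genes, 7 rose and 4 fell, and 4 rose when dox-plus day 4 was taken instead.

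**Figure D3:**
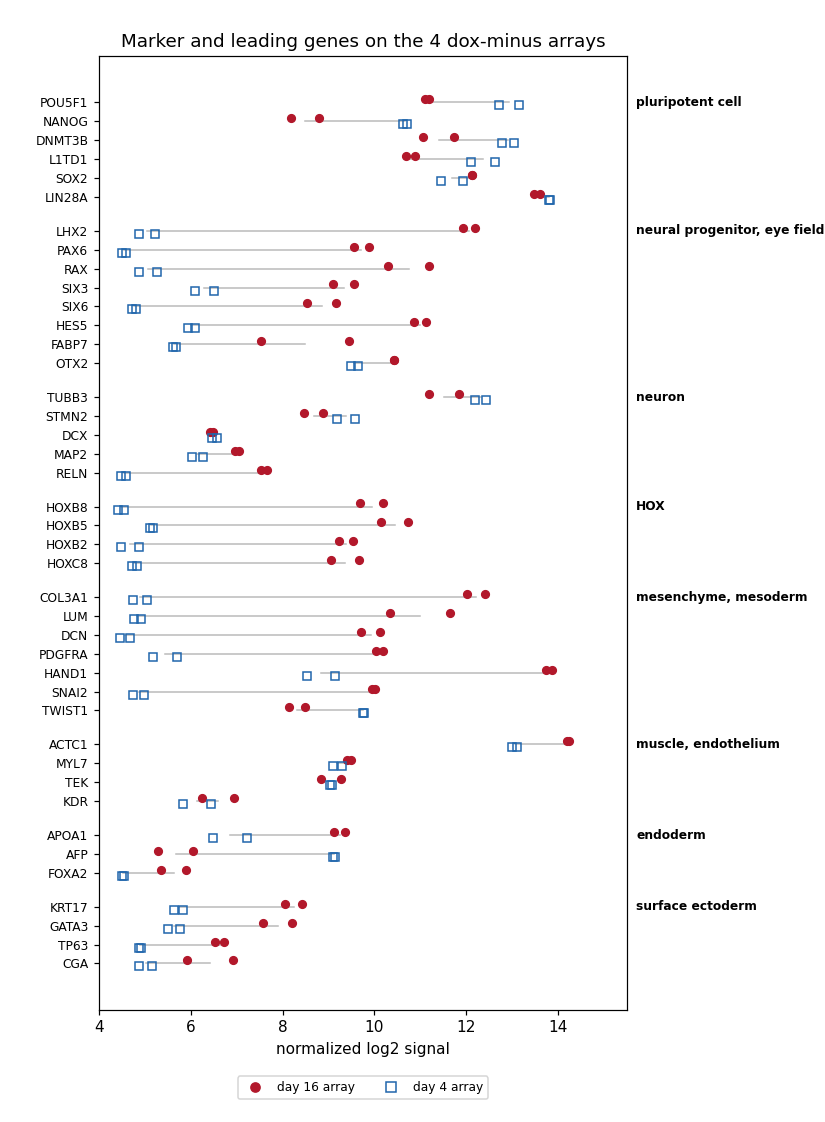
Normalized log2 signal of marker and leading genes on each of the 2 day 16 arrays (filled circles) and the 2 day 4 arrays (open squares), with a grey line joining the means. LHX2, PAX6, the HOX genes and COL3A1, LUM and DCN lie near 5 at day 4 and between 8 and 13 at day 16, and POU5F1, NANOG and AFP lie lower at day 16.

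HOX genes rose in the same cultures. Of 11 tested HOX genes, 9 rose and 0 fell, with a median of 2.85 (2.12 at the bounds), and 8 of the 11 were detected on both day 16 arrays and on neither day 4 array. The list held 39 HOX genes, and those not tested did not pass the filter, which asks for detection on both arrays of some group. A gene undetected at day 4 can enter through day 16 itself, so the filter partly sets the share of rises. This holds for such genes of other lists as well. HOXB8 had 10.19 and 9.68 at day 16, against 4.42 and 4.54 at day 4, and rose by at least 19.2-fold (adjusted p = 1.03e-08). HOXB5 rose by at least 27.3-fold, HOXB2 by at least 13.1-fold, HOXC8 by at least 12.8-fold and HOXB7 by at least 3.15-fold. HOXC6, detected at both days, rose by 2.92 ± 0.36. The 2 members that were not called are HOXA6, at the edge of detection, and HOXC13. Of 10 tested midbrain, hindbrain and spinal genes 3 rose and 1 fell, and 1 rose without day 16 replicate 1 or without either day 4 array. Against dox-plus day 4, 1 rose and 0 fell. The fall from dox-minus day 4 was OLIG2, a spinal motor neuron and oligodendrocyte factor, undetected at day 16 and at 7.34 and 7.38 at day 4, which is one of the genes that crossed the labels.

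The mesenchyme and matrix list held more rises than any other of the 39 lists, but it also had the most tested genes (42). Of these 73.8% were called, beside 81.8% of the HOX genes and 18.0% of all genes. COL3A1, a fibrillar collagen, had 12.01 and 12.40 at day 16, against 5.04 and 4.74 at day 4, and rose by at least 92.5-fold (adjusted p = 1.03e-08). The small leucine-rich proteoglycans LUM and DCN rose by at least 39.9-fold and 18.9-fold, and LUM had 10.35 and 11.63 on the 2 day 16 arrays. EGFLAM, a matrix protein of photoreceptor synapses, rose by at least 40.4-fold and SRPX2, a secreted sushi-repeat protein, by at least 13.5-fold. HAPLN1, which links hyaluronan to proteoglycans, rose by 4.50 and TGFBI, a matrix protein induced by TGF-beta, by 4.35. Of 42 mesenchyme and matrix genes 30 rose and 1 fell, with a median of 1.45 (1.31 at the bounds), and 3 fell against dox-plus day 4.

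Among 27 collagen genes, 15 rose and 3 fell (median 0.97), with 2 falls without day 16 replicate 2 or either day 4 array. COL6A3 rose by 4.73, COL2A1, the cartilage and notochord collagen, by 4.12, the basement membrane chains COL4A6 and COL4A5 by 2.99 and 2.35, and COL1A2 by 1.91. TWIST1 went against the mesenchyme markers it was listed with. This bHLH factor of mesenchyme had 8.49 and 8.14 at day 16, against 9.77 and 9.75 at day 4, a fall of 1.45 ± 0.20. SNAI2, a repressor of epithelial genes, was undetected at day 4 and rose by at least 19.7-fold, and ZEB2, another such repressor, rose by at least 3.16-fold. The epithelial cadherin CDH1 had 11.45 and 11.76 at day 16, against 11.93 and 12.21 at day 4, and was not called (adjusted p = 0.215). Of 22 genes of the epithelial to mesenchymal transition, 5 rose and 6 fell, and 1 fell without day 4 replicate 2, 2 without day 16 replicate 2 and 3 without day 4 replicate 1.

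Mesodermal factors rose as well. HAND1, a bHLH factor of lateral mesoderm, heart and trophoblast, had 13.87 and 13.74 at day 16, against 9.14 and 8.54 at day 4, a rise of 4.97 ± 0.37 (adjusted p = 2.32e-06). APLNR, the apelin receptor, rose by at least 13.7-fold. PITX1, a hindlimb and oral ectoderm factor, rose by 5.66, and PDGFRA, a receptor of mesenchymal cells, by 4.69, each detected on 1 of the 2 day 4 arrays. TBXT, the primitive streak factor, was undetected on all 4 arrays, and EOMES had 6.30 and 6.09 at day 16, against 6.32 and 6.33 at day 4. Of 26 mesendoderm and mesoderm genes 17 rose and 2 fell, with a median of 1.42 (0.91 at the bounds), and 0 fell against dox-plus day 4.

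Fewer genes of differentiated mesodermal tissues were called. Of 20 cardiac and smooth muscle genes 3 rose and 2 fell, with 8 and 1 against dox-plus day 4. ACTA2, smooth muscle actin, rose by 2.06, MYL4, an embryonic and atrial myosin light chain, by at least 7.11-fold and ACTC1, cardiac actin, by 1.15, while ACTA1, skeletal actin, fell by 2.18. Of the endothelial markers, TEK and KDR were detected at both days and not called, and PECAM1 and CDH5 did not pass the filter, nor did any of the 3 blood markers. VWF, a clotting factor made by endothelium, rose by 3.27, detected on 1 of the 2 day 4 arrays, and LMO2, a partner of blood and endothelial transcription factors, by 2.33. Of 13 endothelial and blood genes 4 rose and 2 fell, which is 46.2% called and above the 18.0% of all genes.

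Endodermal genes did not move as a block. AFP, the fetal liver and yolk sac protein, had 5.28 and 6.05 at day 16, against 9.10 and 9.14 at day 4, a fall of 3.45 ± 0.24 (adjusted p = 1.19e-06), and was detected on 1 of the 2 day 16 arrays. APOA1, the main protein of high-density lipoprotein, had 9.37 and 9.12 at day 16, against 7.23 and 6.48 at day 4, and rose by 2.39. VTN, vitronectin, rose by at least 3.8-fold and GATA4, a factor of endoderm and heart, by at least 1.43-fold. CER1, the secreted Nodal and BMP inhibitor of anterior endoderm, fell by 1.54 and was detected on 1 day 16 array. FOXA2 was detected on 1 day 16 array, and SOX17 did not pass the filter. Of 16 endoderm and liver genes 9 rose and 2 fell, and 5 rose without day 4 replicate 1, with 6 or 7 without each of the other dox-minus arrays.

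Most epidermal and trophoblast genes rose. TFAP2A, an AP-2 factor of surface ectoderm and neural crest, had 12.63 and 11.97 at day 16, against 9.26 and 8.68 at day 4, a rise of 3.33 ± 0.36. KRT17, a basal keratin, rose by 2.51 and GATA3 by 2.27, each detected on 1 of the 2 day 4 arrays, and TP63, the master factor of stratified epithelium, rose by at least 1.93-fold. GATA2 and VGLL1, both used by trophoblast, rose by at least 3.25-fold and 4.67-fold, and CGA, the shared subunit of gonadotropins, by at least 1.69-fold. Of 24 genes of the list 15 rose and 1 fell, with a median of 1.57 (0.97 at the bounds). The keratin marker KRT5 did not pass the filter. For neural crest and placode, 8 of 19 genes rose and 5 fell (median 0.05), with 2 falls without day 4 replicate 1 and 3 without day 16 replicate 1 or against dox-plus day 4. The crest markers SOX10 and TFAP2B were not called, and FOXD3, a factor of both crest and stem cells, fell by 2.14 and was detected on 1 day 16 array.

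**Figure D4:**
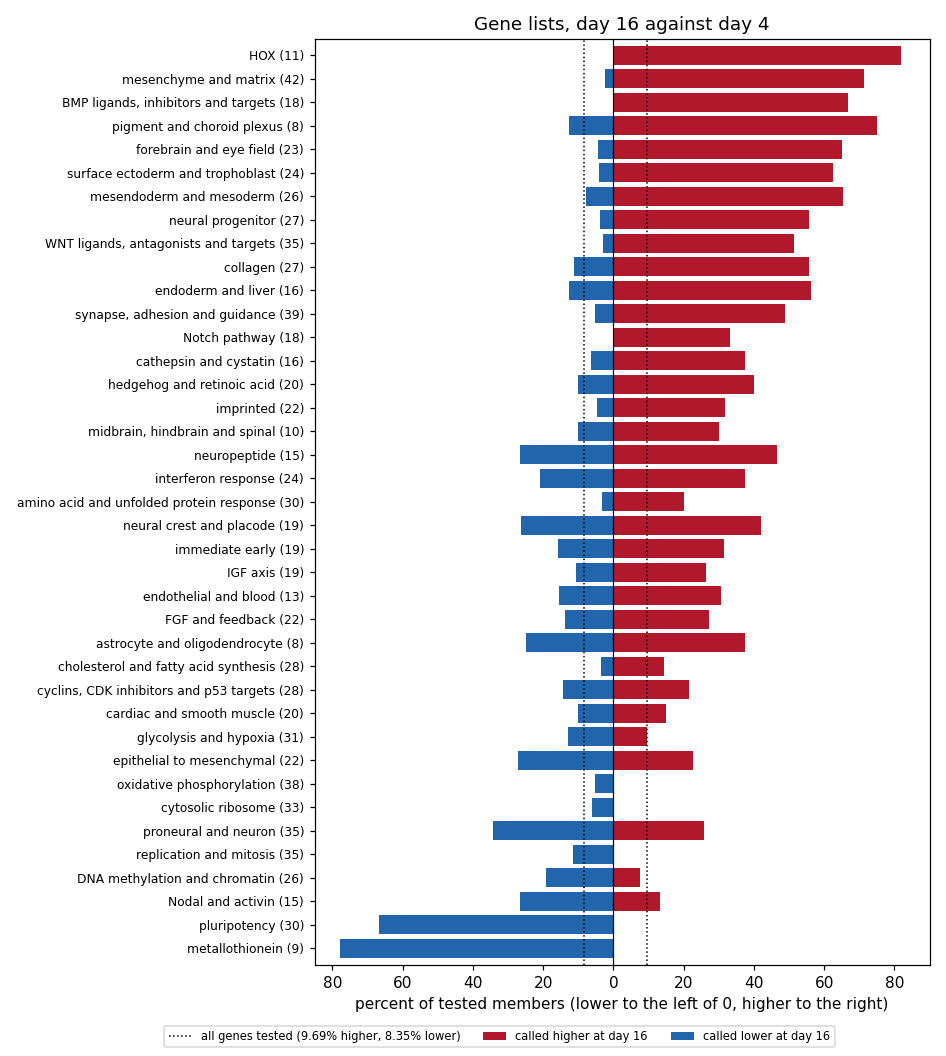
Percent of the tested members of each of 39 gene lists that were called higher (red bars, to the right) or lower (blue bars, to the left) at day 16 than at day 4, with the number tested in brackets and dotted lines at 9.69% higher and 8.35% lower, the shares over all genes. HOX, mesenchyme and BMP genes stand at the top and pluripotency and metallothionein genes at the bottom.

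BMP pathway genes rose at several levels, with 12 of 18 higher and 0 lower (median 1.16). The ligand BMP4 had 12.12 and 11.86 at day 16, against 10.11 and 10.02 at day 4 (1.93 ± 0.20, adjusted p = 3.99e-05). Its targets MSX1 and MSX2, homeobox factors, rose by 4.02 and by at least 3.66-fold, and SMAD6, an inhibitory SMAD that the pathway induces, by 2.56. Secreted modulators rose too: BMPER by at least 7.19-fold and NOG, noggin, by at least 1.65-fold. GREM1, another secreted antagonist, had 7.09 and 8.20 at day 16, against 8.37 at both day 4 arrays, and was not called.

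WNT genes were next, with 18 of 35 higher and 1 lower (median 0.81, 0.28 at the bounds), and 11 higher without day 4 replicate 2. The antagonist DKK1 had 9.25 and 8.65 at day 16, against 4.94 and 5.18 at day 4, and rose by at least 9.70-fold. FRZB, a secreted decoy receptor, rose by 2.29, RSPO3, a secreted amplifier of the pathway, by at least 3.75-fold, the nuclear effector LEF1 by 2.87 and the ligand WNT5A by at least 2.36-fold. The Nodal list had 2 of 15 higher and 4 lower, with 2 lower without day 4 replicate 2 and 7 lower against dox-plus day 4. The Nodal inhibitor LEFTY1 and the ligand GDF3 fell below detection, by at least 2.31-fold (a call lost under 9 alternatives) and 1.61-fold, and NODAL itself was undetected at both days.

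Of 22 FGF genes 6 rose and 3 fell, against 2 and 1 without day 4 replicate 2, 3 and 1 without day 16 replicate 1 and 4 and 1 without day 4 replicate 1, and 5 falls against dox-plus day 4. FGF8, which patterns the forebrain, rose by at least 2.46-fold, FGF9 by at least 3.48-fold and FGF19 by 1.32, while FGF2, the ligand that sustains human stem cells, had 7.98 and 8.51 at day 16, against 9.44 and 9.23 at day 4 (-1.09, adjusted p = 0.0272, a call lost under 8 alternatives). In the hedgehog and retinoic acid list, 8 of 20 rose and 2 fell, with 0 falls without day 16 replicate 2, without day 4 replicate 1 or against dox-plus day 4, and 1 without each of the other dox-minus arrays. The retinaldehyde dehydrogenases ALDH1A1 and ALDH1A2 rose by at least 4.19-fold and 3.09-fold and STRA6, the retinol transporter, by at least 3.04-fold. Another ALDH1A2 probe differed by 0.59 and was not called. The hedgehog effector GLI3 rose by 2.15 and the hedgehog co-receptor GAS1 by 2.16.

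Imprinted growth genes were among the largest rises. DLK1, a paternally expressed Notch-family ligand, had 14.69 and 14.54 at day 16, against 8.68 and 8.54 at day 4, a rise of 6.0 ± 0.24 (adjusted p = 1.93e-08), and its neighbour MEG3, a maternally expressed non-coding RNA, rose by at least 4.71-fold on 1 of its 2 probes. IGF2, fetal insulin-like growth factor, had 11.05 and 10.32 at day 16, against 5.87 and 4.92 at day 4, and rose by 5.30 ± 0.31, detected on 1 day 4 array. A probe for the readthrough transcript INS-IGF2 rose by at least 20.1-fold, but it overlaps IGF2 and cannot be taken as separate. H19 fell below detection, by at least 2.33-fold, and NNAT rose by 5.07. H19 belongs to the genes that crossed the labels, and NNAT crossed them only in part. Against dox-plus day 4 the differences were 0.22 for H19 (adjusted p = 0.6) and 0.85 for NNAT. Of 22 imprinted genes 7 rose and 1 fell. In the IGF axis, with 5 of 19 higher and 2 lower, the binding protein IGFBP3 rose by 4.31, the pappalysin PAPPA, which cleaves IGF-binding proteins, by 3.76 and IGFBP5 by 1.58, while IGFBP6 fell by 1.85.

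Genes of adhesion, synapse and axon guidance rose in 19 of 39 cases and fell in 2 (median 0.73, 0.46 at the bounds), with 6 falls against dox-plus day 4. The ephrin receptor EPHA4 had 10.11 and 10.57 at day 16, against 6.36 and 6.52 at day 4 (3.90 ± 0.20), the guidance ligand SLIT3 rose by at least 6.52-fold, SEMA5A, a semaphorin, by at least 6.09-fold and EFNB1, an ephrin, by at least 5.78-fold.

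Of the replication and mitosis genes 11.4% were called, of oxidative phosphorylation genes 5.26% and of ribosome genes 6.06%, beside 18.0% over all genes. Of 35 replication and mitosis genes 0 rose and 4 fell (median -0.19), of 38 oxidative phosphorylation genes 0 rose and 2 fell, and of 33 cytosolic ribosome genes 0 rose and 2 fell. Without day 16 replicate 2, 5 ribosome and 5 oxidative phosphorylation genes fell, and without each of the other 3 dox-minus arrays none of either list did. Without either day 4 array, 1 replication gene fell. Among them MYBL2, a cell cycle transcription factor, fell by at least 1.82-fold, and MCM5, part of the replicative helicase, by 0.70, a call lost under 13 alternatives. Of the 33 ribosome genes 5 differed by more than 1 between the 2 day 16 arrays. RPL36A had 7.39 and 8.86 at day 16, against 9.54 and 9.63 at day 4, and its call (adjusted p = 0.0205) was lost under 5 alternatives. Of 28 tested cyclins, CDK inhibitors and p53 targets 6 rose and 4 fell (35.7% called, median 0.21), and 2 fell against dox-plus day 4. CDKN1A, a p53 target that blocks cell cycle kinases, had 13.51 and 13.55 at day 16, against 11.97 and 12.04 at day 4, and rose by 1.53. CDKN2B, another kinase inhibitor, rose by 3.23 and CDKN1C by 1.06, a call lost under 5 alternatives. In the glycolysis and hypoxia list 3 of 31 rose and 4 fell (22.6% called), among them PKM, pyruvate kinase, by 1.11 and ADM, adrenomedullin, by 1.30. In that list 5 rose without day 16 replicate 1, and 5 rose and 1 fell against dox-plus day 4. Of 28 genes of cholesterol and fatty acid synthesis 4 rose and 1 fell (17.9% called), with INSIG1, a brake on sterol synthesis, higher by 1.26 on 1 of its 2 probes. Of these 28 genes 1 rose without day 4 replicate 1 and 2 without day 4 replicate 2 or against dox-plus day 4.

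Among stress-related groups, 6 of 30 genes of the amino acid and unfolded protein responses rose and 1 fell, with a median of 0.05. That is 23.3% called, near the 18.0% over all genes. DDIT4, an inhibitor of mTOR signalling, rose by 1.49, the pro-apoptotic factor DDIT3 by 1.51 and TRIB3, a pseudokinase, by 1.01, and the cystine transporter SLC7A11 fell by 1.44, detected on 1 day 16 array. Without day 4 replicate 1, 3 genes of the list rose, and against dox-plus day 4, 3 rose and 3 fell. In the interferon list 9 of 24 rose and 5 fell, with 2 falls without day 4 replicate 2 and 3 without day 4 replicate 1, without day 16 replicate 2 or against dox-plus day 4. IFI6 had 11.66 and 11.36 at day 16, against 9.32 and 9.28 at day 4 (2.21 ± 0.23), and MX1, an antiviral GTPase, rose by 1.83, whereas its paralog MX2 fell below detection, by at least 3.86-fold. The cystatins CST3 and CST1, inhibitors of cysteine proteases, rose by 2.37 and 3.63, the CST1 probe being detected on 1 day 4 array.

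Metallothioneins, small metal-binding proteins induced by zinc and cadmium, fell. Of 9 tested genes of that list, which includes a zinc exporter, 7 fell and 0 rose, with a median of -1.24 (-1.13 at the bounds). MT1X had 10.69 and 10.74 at day 16, against 11.77 and 11.91 at day 4 (-1.13 ± 0.23, adjusted p = 0.00549), MT1G fell by 1.38 and MT1F by 1.27. MT1H fell by 1.53 on its brighter probe, while its other probe differed by -0.21 and was not called. MT2A had 9.83 and 9.81 at day 16, against 10.11 and 10.04 at day 4, and was not called (adjusted p = 0.443). These genes are close copies of each other, so their probes may share targets.

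The promoters of a metallothionein gene that fell and of one that was not called are shown. Capitals mark the metal response element core, TGCGCNC or TGCACNC on either strand, and no 2 matches overlap. MT1X (GRCh38.p14, plus strand, chr16:56682220-56682469) holds 4 of them and MT2A (plus strand, chr16:56608334-56608583) holds 7, in the 250 bases before the start.
MT1X: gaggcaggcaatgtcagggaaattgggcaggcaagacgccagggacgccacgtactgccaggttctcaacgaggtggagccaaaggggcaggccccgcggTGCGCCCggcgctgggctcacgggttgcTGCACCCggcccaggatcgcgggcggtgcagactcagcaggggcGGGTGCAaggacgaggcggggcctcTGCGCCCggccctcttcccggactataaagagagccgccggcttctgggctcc
MT2A: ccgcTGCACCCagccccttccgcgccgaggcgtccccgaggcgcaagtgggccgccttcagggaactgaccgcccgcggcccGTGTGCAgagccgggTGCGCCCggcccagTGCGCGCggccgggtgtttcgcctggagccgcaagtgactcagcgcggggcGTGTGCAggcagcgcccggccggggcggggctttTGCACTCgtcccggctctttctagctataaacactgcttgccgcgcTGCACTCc
MT1H, which fell on its brighter probe, holds 8 in its own window. At least 1 such core is present in 24.8% of the 35116 promoters.

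Of the other genes at the top, HOPX, a homeodomain protein without DNA binding that is known from heart and stem cell niches, had 11.53 and 11.05 at day 16, against 4.63 and 4.45 at day 4, and rose by at least 49.1-fold. At the bottom of the ranking, SFTA1P, a surfactant-associated pseudogene, had 6.52 and 7.90 at day 16, against 11.00 and 11.34 at day 4, a fall of 3.96 ± 0.36 (adjusted p = 1.13e-05). AADACL3, a deacetylase-like gene, fell by 3.50, ABHD12B, a hydrolase-domain gene whose other probes changed by -4.79 and -0.15, by 3.48, GARIN1B by 3.28 and GLIPR1L1 by 3.13. DNER, a neuronal Notch ligand, had 4.67 and 4.71 at day 16 and 7.52 and 7.79 at day 4, and KLKB1, plasma prekallikrein, was also undetected at day 16, so they fell by at least 4.27-fold and 7.16-fold. IAH1 stands among these 12 genes with the largest falls, at -3.22, but differed by -0.14 against dox-plus day 4 (adjusted p = 0.71).

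The same interval in dox-plus cells was compared next, on arrays not shared with the dox-minus comparison. There, 5733 genes (36.6%) changed. Of the 2823 genes called in dox-minus cells 1785 changed in the same direction in dox-plus cells, which is 63.2% of the dox-minus and 31.1% of the dox-plus calls, and 126 in the opposite direction. LHX2 rose by 7.01 in dox-minus and 7.17 in dox-plus cells, PAX6 by 5.17 and 5.57, DLK1 by 6.0 and 6.43 and AFP fell by 3.45 and 4.38, and for none of the 4 was the difference called. The change itself differed between dox-minus and dox-plus cells for 1228 genes (7.85%), with 732 differences (4.68%) above and 496 (3.17%) below 0. The count was 583 without dox-plus day 16 replicate 1 and 2133 without dox-minus day 16 replicate 2.

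Genes with a more positive change in dox-minus cells included the HOX group, with 9 of 11 differences above 0, the mesenchyme and matrix list, with 20 of 42, and the collagens, with 11 of 27. Such a difference can come from a rise in dox-minus cells or a fall in dox-plus cells. A gene can also pass the filter through dox-minus day 16 alone, so the filter partly sets these counts, as it does the share of rises. Of the 11 HOX genes, 8 were detected on both dox-minus day 16 arrays and on neither dox-minus day 4 array. HOXB8 changed by 5.46 in dox-minus and -0.38 in dox-plus cells, EGFLAM by 5.77 and 0.15, CRHBP by 5.43 and -0.16, and COL3A1 by 7.31 and 2.87. HEY2, a Notch target also used in vessels and heart, changed by 1.14 and -3.23, and CD44, a hyaluronan receptor, by 1.10 and -3.39. Of the 27 neural progenitor genes, 9 differences were below 0 and 1 above, of 35 proneural and neuron genes 10 below and 4 above, and of 15 neuropeptide genes 0 below and 8 above. HES5 changed by 4.98 in dox-minus and 7.30 in dox-plus cells, FABP7 by 2.85 and 6.52, and MAP2 by 0.87 and 4.11. The extreme differences below 0 belong to TMSB15A, with -1.55 and 7.65, and H19, with -2.12 and a rise of 6.8. H19 crossed the labels. TMSB15A did so only in the direction of its changes, since its dox-minus day 16 level was 2.87 above that at dox-plus day 4.

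**Figure D5:**
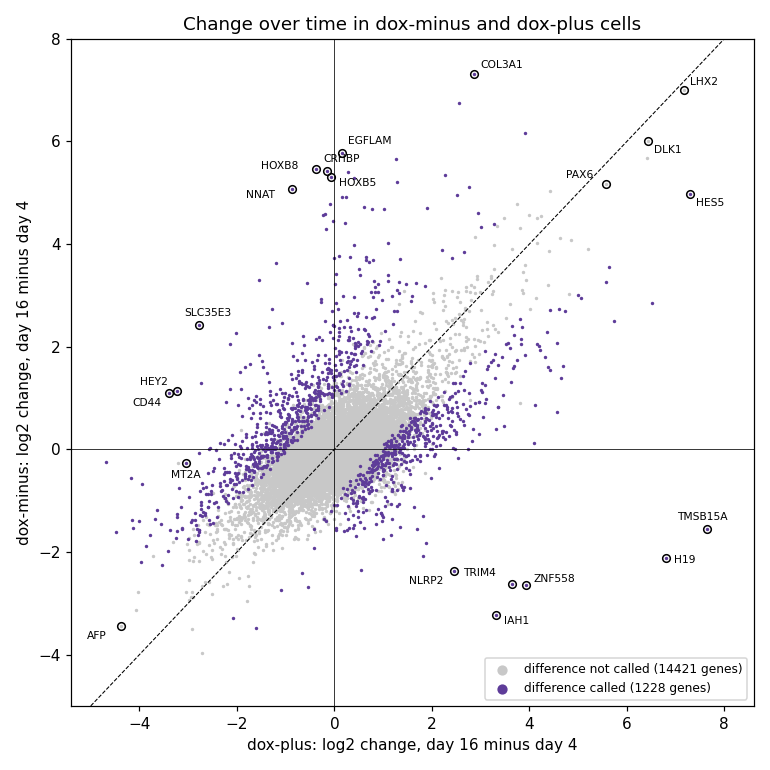
Log2 change from day 4 to day 16 in dox-minus cells (vertical axis) against that in dox-plus cells (horizontal axis), 1 point per gene, with the dashed line at equal change and the 1228 genes whose difference was called in purple. LHX2, PAX6 and DLK1 lie near the dashed line, HOXB8, EGFLAM and CRHBP near the vertical axis, and H19, TMSB15A and IAH1 at the lower right.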

How the data were processed

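Total RNA was measured on 12 Illumina bead arrays, 2 per group. Per the file headers, what the authors deposited for each probe is an intensity, a bead number and a p-value of detection. Those intensities were not normalized between arrays, with medians between 73.1 and 89.2, and no header or label records a background subtraction. The deposited series table held the same values for 10 of 12 arrays, while the 2 shLuc columns held each other's values. RNA was extracted with a Qiagen kit and amplified with an Ambion kit, per the labels' protocols.

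From these values, log2 levels were computed with neqc in limma 3.58.1 (R 4.3.3): normexp background correction with negative controls inferred from detection p, an offset of 16 and quantile normalization of 47227 probes. A probe was kept when some group had it detected (p under 0.01) on both arrays (21526, of which 807 had no gene). The brightest kept probe on average stood for each gene, which gave 15649 genes, 4014 of them with several probes. Symbols were updated through RefSeq for 35670 probes, 8287 kept the file's name and 3270 had no gene ID. One limma fit over the 12 arrays, with empirical Bayes moderation, 6 residual and 5.923 prior degrees of freedom, gave each change, its standard error and the p-value adjusted by Benjamini-Hochberg over all genes, called under 0.05. All adjusted p-values in the text come from that fit. The script was tested on simulated data.

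Genes named are LHX2 and PAX6, the 12 largest rises and the 12 largest falls among called genes, up to 6 called and 3 uncalled members per gene list with the largest change, the 6 highest and 6 lowest differences between dox-minus and dox-plus, the 6 widest gaps between arrays of a day, and cell type markers. Members and lists were chosen with earlier results of these data known. Whether replicate numbers pair the samples was checked by the gap between arrays, which correlated at 0.18 between dox-minus days, -0.418 between dox-plus days and 0.073 in the knockdown arm, so the numbers were not taken as pairs. Beyond the series' words on duplicates, no label describes how replicates differ, so p-values measure the spread between these arrays. The number of arrays limits the precision. Alternatives changed the background correction, offset, normalization, probe filter, probe rule, arrays in the fit, moderation, threshold and arrays left out. A few named genes are not reported here.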

Additional observations from a re-analysis of the deposited data

Results flagged for a closer look

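The change from day 4 to day 16 differed between dox-minus and dox-plus cells for 1228 genes by the test of the difference itself, and 91 of the genes named here are among them. All values that follow are the log2 change in dox-minus cells minus that in dox-plus cells.

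Among position and mesoderm factors, the difference was 5.84 for HOXB8, 5.37 for HOXB5, 4.78 for HOXC8, 3.19 for HOXC6 and 2.81 for both HOXB2 and HOXB7. It was 4.67 for APLNR, 4.4 for PITX1, 3.92 for PDGFRA, 4.37 for HEY2, 4.19 for HOPX, 2.45 for HAND1 and 2.11 for TWIST1. Each of these 13 genes changed more positively in dox-minus cells.

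Matrix and mesenchyme genes lay on the same side. The difference was 5.62 for EGFLAM, 4.85 for SRPX2, 4.49 for CD44, 4.44 for COL3A1, 4.12 for COL6A3, 3.07 for DCN, 2.34 for SNAI2, 2.25 for LUM, 1.75 for COL4A5 and 1.39 for COL4A6. Muscle and vessel genes followed with 3.04 for MYL4, 1.06 for ACTC1, 1.94 for VWF and 1.05 for TEK. Endoderm and surface ectoderm genes gave 3.73 for APOA1, 3.21 for VTN, 2.12 for FOXA2, 1.61 for GATA4, 1.6 for CER1, 2.69 for GATA2 and 2.4 for KRT17.

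Signalling genes were split. Above 0 were BMPER at 3.58, MSX1 at 2.92, SMAD6 at 1.78, BMP4 at 1.36, DKK1 at 1.67, FGF19 at 2.65, LEFTY1 at 2.62, NODAL at 2.1, STRA6 at 2.07 and SLIT3 at 1.75. Below 0 were FGF8 at -3.25, FGF9 at -2.09, FRZB at -2.07, GAS1 at -1.68 and the Notch genes DLL1 at -1.88, MFNG at -1.83, HES4 at -1.28 and HES5 at -2.32.

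Neural genes also lay on both sides. The difference was -3.66 for FABP7, -3.24 for MAP2, -2.5 for NEUROG2, -2.46 for DMRT3 and -2.3 for RTN1, against 5.59 for CRHBP, 2.33 for GAL, 2.22 for RELN, 2.11 for CHGA, 1.14 for CALCA and 1.05 for SCG2.

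Among growth, stress and other genes, the difference was 5.13 for INS-IGF2, 4.89 for IGF2, 3.44 for PAPPA, -1.55 for IGFBP5 and -2.03 for MEG3. It was 3.79 for CDKN2B, 2.18 for DDIT3, 1.96 for TRIB3, 1.61 for DDIT4, 4.84 for CST1, 2.05 for CST3, 3.38 for MX1 and -1.74 for MX2. Metallothionein genes changed less negatively in dox-minus cells, with differences of 2.79 for MT2A, 2.78 for MT1G, 2.62 for MT1H and 1.46 for MT1X, and NANOG gave 1.78. ABHD12B gave -1.86 and GARIN1B -1.21.

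For genes whose levels crossed the labels the difference was -8.93 for H19, -6.57 for ZNF558, -6.55 for IAH1, -6.27 for TRIM4 and -3.88 for OLIG2. It was -9.21 for TMSB15A, which crossed the labels only in the direction of its changes, and 5.94 for NNAT, which crossed them only in part. SLC35E3, which differed by -0.94 against dox-plus day 4, gave 5.2. The part of these genes in the other differences was not tested.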

How the results depend on the processing

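The count of genes changed over time in dox-minus cells (2823) fell to 1772 among genes detected on all 12 arrays, 1517 at an adjusted p under 0.01 and 368 when tested for a change above 1 on the log2 scale. It was 1982 from the 4 dox-minus arrays alone and 2097 from the 8 dox arrays alone. Leaving out 1 of the 4 dox-minus arrays gave 1598 to 2677, with 1626 and 1598 without day 4 replicates 1 and 2. The share of calls that were higher was 53.7%, against 62.0% with median scaling and 70.3% in the deposited value table. Dox-minus day 16 against dox-plus day 4, chosen after seeing the data, gave 3612. The count of differences between dox-minus and dox-plus (1228) was 700 among genes detected on all 12 arrays, 687 from the 8 dox arrays alone, 475 at an adjusted p under 0.01, 129 above 1 on the log2 scale and 583 to 2133 with 1 array left out. Its share above 0 was 59.6%, against 71.7% with median scaling and 82.9% in the deposited value table, where the median difference over all genes was 0.147 and 0.233. With the replicate block the counts were 2333 and 765, and of the 178 named genes 2 lost and 2 gained their call. Genes detected on both arrays of 1 day only numbered 408, not 839, when the other day had to exceed a detection p of 0.05. The gap count of 782 at day 16 was 365 without background correction.

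Of the 178 named genes, 145 kept direction and call under the up to 17 alternatives run for each, which leave out the stricter thresholds, and the test above 1 ended 51 calls. In further lists a count of 1 or 2 calls moved by 1 when an array was left out. Against dox-plus day 4, 9 calls were lost and 3 gained with the direction kept, and 12 directions reversed. Reversals in the deposited value table gave 0.066 for EOMES, 0.072 for HOXA6, 0.047 for SOX10 and 0.11 for TEK. TEK, near 0, was also 0.0013 with cyclic loess, 0.062 with median scaling and 0.059 with probes averaged. With 1 array left out, the range was -0.21 to 0.057 for HOXA6, -1.79 to 0.31 for RPS13P8, -0.0899 to 1.91 for SNORA12, -0.46 to 0.17 for SOX10 and -0.23 to 0.21 for TEK. Against dox-plus day 4 the change was 0.26 for EOMES, 0.22 for H19, 0.091 for LIN28A, 0.0395 for OLIG2, 0.22 for RPS13P8, 0.34 for SOX10, 0.22 for STMN2, 0.93 for TEK, 2.87 for TMSB15A, 0.0393 for TRIM4, 0.0171 for ZNF558 and -0.94 for SLC35E3, all of opposite sign to the reported change. The causes were not tested.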

Other observations

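Of 8 genes of pigment and choroid plexus, 6 were called higher and 1 lower at day 16, with a median change of 1.1, and between 4 and 5 were higher with 1 dox-minus array left out. Of 16 cathepsin and cystatin genes, 6 were higher and 1 lower (median 0.52). The shares called were 87.5% in the pigment list, 43.8% in this list and 47.4% in the immediate early list, beside 18.0% of all genes. Of 19 immediate early genes, 6 were higher and 3 lower (median 0.38), with 3 higher without day 4 replicate 1 and 1 lower without day 4 replicate 2.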
